A study of Homo sapiens with 3 samples.

Results

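The 41 genes described here are interferon-induced genes, a list fixed by name and drawn from the 36601 genes of the expression matrix; all 41 had a row and at least 1 UMI (unique molecular identifier, 1 captured RNA molecule). They were read in 8913 cells of 1 pool, in which gene expression and chromatin accessibility had been measured side by side, cell by cell, with the Multiome assay of 10x Genomics. The pool held NF2-null NCI-H226, a human mesothelioma cell line, and NCI-H226_CL3, a clone of that line that resists TEAD inhibition and had been selected with the inhibitor at doses that started at 0.25 µM, grew by 0.1 to 0.5 µM at a time and ended at 3 µM. Both lines had been challenged with GNE7883, a TEAD inhibitor, or with its vehicle DMSO, whose dose and duration are not given in the sources used here. All 4 conditions were marked with hashtag antibodies before pooling, and the matrix used here names no hashtag among its features. Line and treatment can therefore not be told apart cell by cell, all cells count as 1 sample without replicates, and no p-value is given. The comparisons are between groups of cells, and their 95% intervals cover counting error only. CL3 is 1 clone.

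Interferons are secreted proteins that cells release when they sense foreign nucleic acids. Type I interferons bind IFNAR1 and IFNAR2, the kinases JAK1 and TYK2 phosphorylate STAT proteins, STAT2 among them, and STAT2 acts with IRF9 in the complex ISGF3, which binds the interferon-stimulated response element (ISRE) in the promoters of its target genes. The products of those genes block viral translation, degrade viral RNA, sense nucleic acids, or feed back on the pathway.

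The promoters of the 41 genes were searched for the core letters of the ISRE, GAAA followed by 2 bases of any kind and GAAA, on both strands in the 250 bases before the RefSeq start (GRCh38.p14). A promoter was at hand for 33 of the genes; IFIT2, OAS2, OASL, MX2, IRF7, USP18, TRIM22 and CCL5 had no entry in the table. Of these 33 promoters, 20 (60.6%) held the letters, against 829 (3.04%) of 27272 other genes. The letters of the gamma-interferon activation site, TTCNNNGAA, stood in 7 of 33 (21.2%, against 6.72%), those read for NF-kB, GGGA, 2 bases of any kind and TTCC, in 2 (6.06%, against 1.40%), those read for AP-1, TGANTCA, in 3 (9.09%, against 6.57%), and those read for TEAD, GGAATG, in 7 (21.2%, against 11.8%). The windows below belong to the genes that the results turn on: RSAD2, ISG15, IFIT1, IFIT3 and IFI44L, which were among those with the widest differences between cells, and LGALS3BP and STAT2, which stayed under 1.5-fold in cells rich in the list. Capitals mark the ISRE letters on either strand (read on the opposite strand they run TTTC, 2 bases, TTTC), and each sequence runs 5′ to 3′ on the strand of its gene and ends at the base before the start. They lie at chr2:6877527-6877776 (plus strand), chr1:1013247-1013496 (plus), chr10:89392373-89392622 (plus), chr10:89327747-89327996 (plus), chr1:78620198-78620447 (plus), chr17:78979924-78980173 (minus) and chr12:56360108-56360357 (minus).
RSAD2: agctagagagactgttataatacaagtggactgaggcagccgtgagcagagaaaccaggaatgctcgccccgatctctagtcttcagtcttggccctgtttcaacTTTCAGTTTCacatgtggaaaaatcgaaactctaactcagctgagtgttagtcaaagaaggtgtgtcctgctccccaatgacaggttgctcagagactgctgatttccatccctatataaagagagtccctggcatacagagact
ISG15: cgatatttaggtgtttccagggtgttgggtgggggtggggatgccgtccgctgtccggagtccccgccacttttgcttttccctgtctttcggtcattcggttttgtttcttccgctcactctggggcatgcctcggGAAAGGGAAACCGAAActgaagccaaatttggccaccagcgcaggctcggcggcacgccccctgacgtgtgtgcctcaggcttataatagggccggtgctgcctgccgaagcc
IFIT1: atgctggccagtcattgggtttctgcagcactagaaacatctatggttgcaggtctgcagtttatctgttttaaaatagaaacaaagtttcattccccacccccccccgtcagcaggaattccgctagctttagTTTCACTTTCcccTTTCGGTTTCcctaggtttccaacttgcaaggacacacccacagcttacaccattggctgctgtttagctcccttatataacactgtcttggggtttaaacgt
IFIT3: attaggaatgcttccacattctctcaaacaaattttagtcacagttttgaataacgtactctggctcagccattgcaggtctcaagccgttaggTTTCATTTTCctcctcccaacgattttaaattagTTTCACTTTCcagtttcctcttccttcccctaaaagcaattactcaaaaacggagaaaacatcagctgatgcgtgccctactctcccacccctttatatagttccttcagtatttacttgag
IFI44L: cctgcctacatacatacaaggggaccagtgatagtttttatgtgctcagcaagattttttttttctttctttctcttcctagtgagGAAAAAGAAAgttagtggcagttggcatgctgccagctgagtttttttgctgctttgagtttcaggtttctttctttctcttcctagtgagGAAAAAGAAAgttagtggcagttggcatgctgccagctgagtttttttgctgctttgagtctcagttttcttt
LGALS3BP: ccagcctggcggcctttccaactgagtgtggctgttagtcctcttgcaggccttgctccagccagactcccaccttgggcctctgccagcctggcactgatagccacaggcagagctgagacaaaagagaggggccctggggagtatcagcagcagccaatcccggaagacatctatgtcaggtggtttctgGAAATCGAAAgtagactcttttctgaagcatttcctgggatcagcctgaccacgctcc
STAT2: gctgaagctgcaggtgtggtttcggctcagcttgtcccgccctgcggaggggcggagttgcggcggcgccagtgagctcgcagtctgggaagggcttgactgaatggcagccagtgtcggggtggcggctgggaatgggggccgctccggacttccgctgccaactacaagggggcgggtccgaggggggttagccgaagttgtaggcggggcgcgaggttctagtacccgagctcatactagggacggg
Counting the base before the start as -1, the match nearest to the start lay at -145 to -136 in RSAD2, -107 to -98 in ISG15, -103 to -94 in IFIT1, -122 to -113 in IFIT3, -73 to -64 in IFI44L and -58 to -49 in LGALS3BP. In ISG15 both matches overlap in 1 run of letters, and STAT2 held no match. The windows of the divergent genes PARP9 and DTX3L overlap, and the letters lay only in that of PARP9. A match is a description of the letters and not a measured binding site.

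Barcodes were taken as cells when they held 1000 or more UMIs and 1000 or more peak counts and when mitochondrial genes made up no more than 20% of their UMIs. Cells had a median of 1524 UMIs (1000 to 13064) and 4034 peak counts (1001 to 59374), and doublets were not removed. Free RNA was read from 412157 barcodes of 1 to 100 UMIs and under 100 peak counts, which together held 791461 UMIs. Mesothelial marker genes summed to 10244 to 14567 CPM (UMIs of a gene scaled to 1e6 UMIs in all) over the 6 chromatin clusters described below, while immune markers summed to 9.62 to 14.3 CPM, so markers of the labelled cell type, mesothelioma, were present in every cluster.

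Together the 41 genes took 2196 CPM (95% interval 2173 to 2219), or 36427 UMIs. In free RNA they summed to 2056 CPM, so their summed level set cells only slightly apart from free RNA. A median cell had 3 UMIs of these genes, the highest had 132, and 553 cells (6.20%) had none. CPM counts captured molecules and was not divided by gene length, so the order below is an order of captured molecules.

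Levels spanned more than 2 orders of magnitude. The highest were LGALS3BP, a secreted galectin-binding glycoprotein (261.8 CPM), IFI27, a small mitochondrial and nuclear membrane protein (261.5 CPM), and SP100, a component of nuclear bodies (247 CPM). The intervals of LGALS3BP and IFI27 (254 to 270 and 254 to 269 CPM) overlapped almost wholly. Below them stood EIF2AK2, the kinase PKR that halts translation on double-stranded RNA (135 CPM), SAMD9, which restricts poxviruses (123 CPM), PARP14, an ADP-ribosyltransferase (111 CPM), and ISG15, a ubiquitin-like modifier (104 CPM). These 7 were the members at 100 CPM or more, and the 5 highest held 46.8% of the list's UMIs.

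A further 22 members lay between 20 and 100 CPM. Of the RNA-binding IFIT proteins, IFIT3 stood at 46.8 CPM, IFIT1 at 33.7 CPM, IFIT2 at 28.8 CPM and IFIT5 at 13.7 CPM. The dynamin-like antiviral GTPases MX1 and MX2 stood at 73.2 and 26.6 CPM. Of the oligoadenylate synthases, which activate RNase L, OAS3 stood at 24.8 CPM, OASL, which lacks that activity, at 14.6 CPM, OAS1 at 8.74 CPM and OAS2 at 7.35 CPM. RSAD2 (viperin), which makes a chain-terminating nucleotide, stood at 45.3 CPM and the chemokine CCL5 at 48.3 CPM. The lowest members were CMPK2, the gene next to RSAD2 (4.46 CPM), USP18, the protease that removes ISG15 and damps the receptor (3.26 CPM), TRIM22 (2.59 CPM) and HERC5, the ligase that attaches ISG15 (1.39 CPM).

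**Figure D1:**
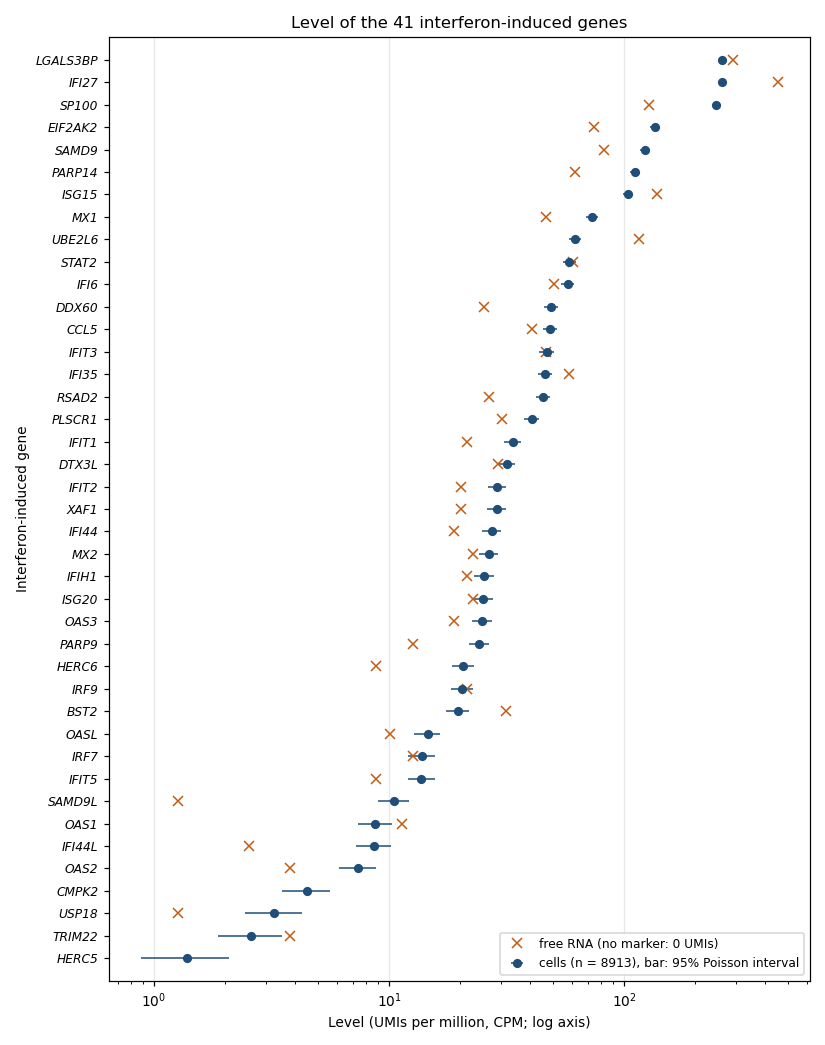
Level of each of the 41 genes in CPM on a log axis; circles are the sum over 8913 cells with 95% Poisson intervals and crosses are free RNA. LGALS3BP, IFI27 and SP100 stand at the top and HERC5 lowest, and for most genes the cross lies within 2-fold of the circle; HERC5 and CMPK2 had no UMI in free RNA and show no cross.

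Cells exceeded free RNA for 10 members and were below it for 4, and for the other 27 the interval of the ratio included 1. SAMD9L stood at 10.5 CPM in cells and 1.26 CPM in free RNA (8.30-fold, 95% interval 1.47 to 330), HERC6 was 2.33-fold higher in cells (1.12 to 5.84), DDX60, a helicase, 1.94-fold (1.25 to 3.19), and SP100 1.94-fold (1.59 to 2.38). Lower in cells were UBE2L6, the conjugating enzyme for ISG15 (0.532 times, 0.430 to 0.666), IFI27 (0.577 times, 0.518 to 0.644), BST2, the surface protein tetherin (0.620 times, 0.413 to 0.973), and ISG15 (0.752 times, 0.619 to 0.921). For most of the list the interval thus did not separate the level in cells from that in free RNA, which does not show equal levels. Intervals were wide where free RNA held few UMIs, as for IFI44L (2 UMIs, 3.41-fold, 0.927 to 28.4). The results that follow rest on how UMIs were spread among cells.

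Of the upstream pathway, the receptor chains IFNAR1 and IFNAR2 stood at 56.4 and 36.4 CPM, IFNGR1 at 51.4 CPM, JAK1 at 85.8 CPM, JAK2 at 27.1 CPM and TYK2 at 16.9 CPM. IFNLR1, the specific receptor chain for type III interferons, had 3 UMIs (0.181 CPM). Among the members, STAT2 stood at 58.4 CPM, IRF9 at 20.4 CPM and IRF7, the factor that drives interferon alpha genes, at 13.8 CPM. Of 21 interferon genes, 18 had no UMI in any cell, which for each allows up to 0.222 CPM (95% Poisson limit). The exceptions were IFNE with 11 UMIs, IFNB1 with 2 and IFNL1 with 1, each in a different cell. The 11 cells with IFNE had a median of 2 UMIs of the 41 genes among 1000 drawn UMIs, the same as all cells, and the 2 cells with IFNB1 had 2 and 4.

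Groups of cells were drawn from the peaks alone, leaving out every peak within 20 kb of a start-site interval of the 41 genes, so that neither their RNA nor the peaks around them entered. This gave 5 clusters of at least 100 cells, and a sixth of 86 cells that was not compared. In each cluster the UMIs of a gene were summed and set against all other cells. Genes with 100 or more UMIs in all and a level of 20 CPM or more on at least 1 side were compared, and a gene counted as higher or lower when the ratio reached 1.5-fold and its interval did not include 1. A cluster is a set of cells with similar open chromatin and was not read as a line or a treatment.

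The 41 genes were most abundant in cluster 2 (1347 cells), at 3138 CPM (3073 to 3203), and least abundant in cluster 4 (630 cells), at 1409 CPM (1351 to 1468). Cluster 1 (5891 cells) stood at 2116 CPM, cluster 3 (670 cells) at 1717 CPM and cluster 5 (289 cells) at 2278 CPM. Against all other cells these are ratios of 1.57 (1.53 to 1.61) in cluster 2, 1.04 (0.990 to 1.09) in cluster 5, 0.916 in cluster 1, 0.766 in cluster 3 and 0.618 (0.592 to 0.645) in cluster 4. Cells of cluster 2 and cluster 4 were of similar quality by the share of mitochondrial UMIs (medians 13.9% and 13.7%) and differed in depth (medians 1832 and 2294 UMIs). With every cell thinned to 1000 UMIs, 18 of 32 compared members were counted as higher in cluster 2 (6.03% of all 7033 genes) and 18 of 29 as lower in cluster 4 (5.64% of all 6946 genes). Leading genes of cluster 2 among all genes were HMGA2, a chromatin protein (4.14-fold), and IL1RAPL1 (4.06-fold), and those of cluster 4 included CYP24A1, which degrades vitamin D (3.77-fold), and the receptor ERBB3 (3.31-fold).

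In cluster 2, 20 of the 41 members were higher and 0 lower, with 32 compared, while 4.86% of 6952 other genes compared were higher and 4.1% lower. Of the 29 members at 20 CPM or more over all cells, this cluster included, 17 were higher, against 3.54% of 6546 other genes. Their median log2 ratio was 0.83, against 0.05 over those genes. OAS3 (19.5 CPM in the other cells) and HERC6 (17.6 CPM), both among the 17, met that floor only through this cluster. IFI44L, an antiviral protein of the IFI44 family, had the highest ratio (20.9 against 6.05 CPM, 3.46-fold, 2.44 to 4.88). IFI44L, OASL, OAS3, BST2 and HERC6 were under 20 CPM in the other cells and entered the comparison of 32 members only through this cluster. IFI44L was followed by MX2 (55.1 against 20.6 CPM, 2.67-fold, 2.18 to 3.26), RSAD2 (93.1 against 35.3 CPM, 2.64-fold, 2.26 to 3.07), OASL (29.6 against 11.4 CPM, 2.59-fold, 1.96 to 3.39) and OAS3 (50.2 against 19.5 CPM, 2.57-fold, 2.08 to 3.16). IFIT3 (2.504-fold), IFIT2 (2.47-fold) and IFIT1 (1.67-fold) were higher as well, and so were the sensor IFIH1 (MDA5, 1.78-fold) and the pro-apoptotic XAF1 (2.03-fold). Among members under the threshold, STAT2 stood at 0.989 times (0.831 to 1.17), IRF9 at 1.43 times and EIF2AK2 at 1.30 times. LGALS3BP, the most abundant member, stood at 1.14 times (1.05 to 1.23).

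In cluster 4, 22 members were lower and 0 higher, with 30 compared and 5.67% of 6810 other genes lower. Of the 29 members at 20 CPM or more over all cells, 21 were lower, against 5.71% of the other genes, and their median log2 ratio was -0.89, against -0.03 over those genes. MX2 stood at 5.61 against 28.8 CPM (0.194 times, 0.0883 to 0.373), IFI44 at 8.72 against 29.4 CPM (0.296 times), XAF1 at 10.6 against 30.6 CPM (0.346 times) and RSAD2 at 17.4 against 48.3 CPM (0.361 times, 0.238 to 0.527). The difference reached abundant members, with SP100 at 141 against 258 CPM (0.547 times) and IFI27 at 172 against 271 CPM (0.634 times). LGALS3BP stood at 266 against 261 CPM (1.02 times, 0.919 to 1.12) and STAT2 at 51.1 against 59.2 CPM (0.863 times, 0.679 to 1.08). Cluster 4 was not well recovered without scaling of the components to unit length. The cluster that shared most with it there (Jaccard index 0.279, 1284 cells) had 17 members lower.

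Cluster 3 had 10 members lower and 0 higher, with 30 compared and 6.55% of 6914 other genes lower. RSAD2 (17.9 against 47.9 CPM, 0.373 times, 0.242 to 0.551) and MX1 (30.2 against 77.3 CPM, 0.391 times, 0.283 to 0.528) were farthest down, with IFIT1, IFIT2, IFIT3, MX2, DDX60, CCL5, IFI27 and UBE2L6 between 0.520 and 0.628 times. In cluster 1, the bulk of the cells, OAS3 (0.606 times) and MX2 (0.632 times) were lower of 30 compared, and 0 were higher, where 0.825% of 6785 other genes were higher and 0.811% lower. Both calls in cluster 1 depended on the partition: 0 members were lower with clusters drawn from all peaks or at resolution 1.0, and at resolution 0.3 OAS3 stood at 1.63 and MX2 at 2.03 times. Over the 29 members at 20 CPM or more in all cells, the median log2 ratio was -0.47 in cluster 3 (-0.01 over other genes) and -0.22 in cluster 1 (-0.04 over other genes).

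Cluster 5 did not move in 1 direction. Of 31 members compared, 6 were higher and 3 lower, where 7.57% of 7076 other genes were higher and 4.85% lower. Of the 29 members at 20 CPM or more over all cells, 4 were higher and 3 lower, against 5.65% and 5.15% of other genes, while IRF7 (28.1 against 13.1 CPM) and BST2 (34.5 against 18.9 CPM) met the floor only through this cluster. Higher were MX2 (54.9 against 25.2 CPM, 2.18-fold, 1.55 to 2.99), IRF7 (2.15-fold), IFIT1 (67.7 against 32.0 CPM, 2.11-fold, 1.56 to 2.81), BST2 (1.83-fold), PLSCR1, a phospholipid scramblase (1.76-fold), and IFI6 (1.62-fold). Lower were CCL5 (11.5 against 50.2 CPM, 0.229 times, 0.104 to 0.437), RSAD2 (23.0 against 46.4 CPM, 0.496 times, 0.292 to 0.789) and STAT2 (0.645 times). Set directly against cluster 2, cluster 5 had 14 of 28 compared members lower and 0 higher, where 5.71% of 5549 other genes were higher and 6.18% lower. The lowest of these were CCL5 (0.143 times, 0.0645 to 0.276) and RSAD2 (0.247 times, 0.144 to 0.398), while IFI6 stood at 90.7 against 97.3 CPM (0.933 times, 0.708 to 1.21). RSAD2 and MX2, both high in cluster 2, thus stood on opposite sides of the other cells in cluster 5. Among cells with at most 10% mitochondrial UMIs, 18 members were compared in cluster 5, and 0 were higher and 0 lower. IFIT1 stood at 0.789 times and IFI6 at 0.648 times there, where cells and UMIs were fewer. After thinning to 1000 UMIs 3 members were higher and 3 lower. Without scaling of the components to unit length this cluster was not recovered: the cluster that shared most with it (Jaccard index 0.128) had 20 members higher and 0 lower, with RSAD2 at 2.27 and CCL5 at 1.39 times.

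**Figure D2:**
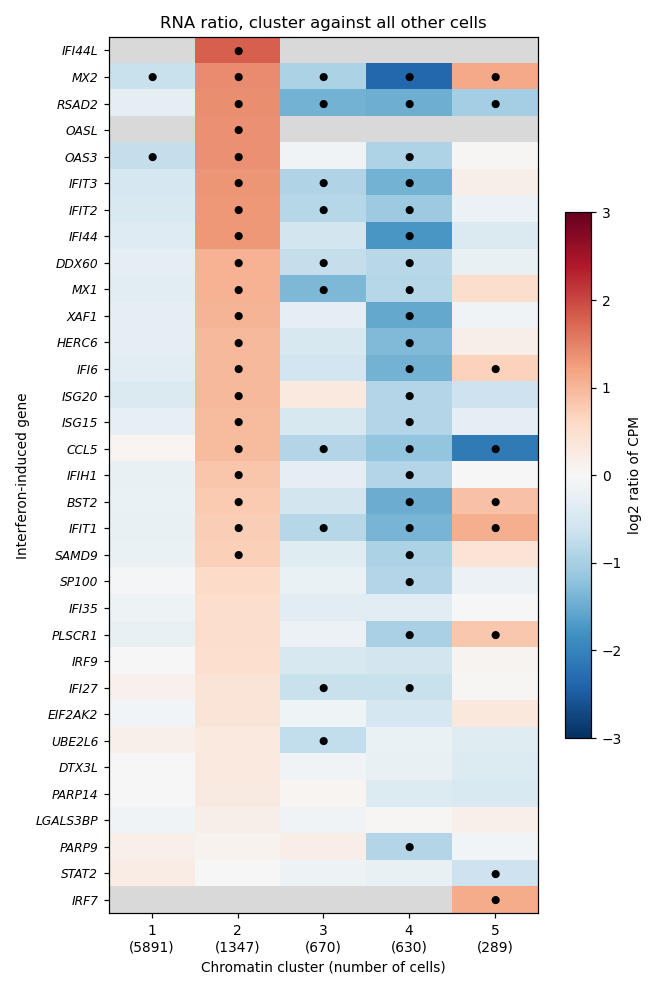
log2 ratio of CPM in each chromatin cluster against all other cells for the members compared in at least 1 cluster (grey: not compared; dot: at least 1.5-fold with an interval that leaves out 1). The column of cluster 2 is red for all but STAT2 of its 32 compared members, the column of cluster 4 is blue for all but LGALS3BP, and cluster 5 holds dots of both colours.

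Of other interferon-induced genes that are not on the list, 8 of 23 compared were higher in cluster 2 and 0 lower (4.86% and 4.1% of other genes), among them ZC3HAV1, which binds CpG-rich viral RNA (2.06-fold, 1.82 to 2.33), and IFI16, a DNA sensor (1.56-fold). In cluster 4, 4 of 19 were lower (5.67% of other genes), with ZC3HAV1 at 0.455 times and IFI16 at 0.624 times, and IFITM2 was higher (1.56-fold). No antigen presentation gene was counted in either cluster, of 12 and 13 compared. DDX58, which encodes the sensor RIG-I, stood at 1.75-fold in cluster 2 (1.496 to 2.03) and 0.587 times in cluster 4 (0.435 to 0.777). Of the receptors and kinases, JAK2 was higher in cluster 2 (1.53-fold) and IFNGR1 lower (0.496 times, 0.389 to 0.624), and IFNAR1 stood at 0.884 times (0.736 to 1.06). Of NF-kB targets, 5 of 10 were lower in cluster 2 and 0 higher (4.1% and 4.86% of other genes), with LCN2 at 0.212 times and SOD2 at 0.620 times. Of 11 mesothelial markers compared in cluster 2, CALB2 (0.611 times), UPK3B and LRRN4 were lower. Immune markers summed to 14.3 CPM in cluster 2 and 12.5 CPM in cluster 4, and their part in the differences was not tested.

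Which members varied together from cell to cell was read with depth held equal. Each cell was thinned to 1000 UMIs drawn at random, and for each member the cells with at least 5 thinned UMIs of the other 40 genes (634 to 841 cells) were set against all other cells, using the unthinned UMIs of that member alone. Such cells are called rich here. Of the 41 members, 32 were higher in rich cells and 0 lower, with 37 compared. Of 6882 other genes, 1.7% were higher and 1.03% lower in the 842 cells rich in the whole list. Some of the 32 were under 20 CPM in the other cells and met the floor only through the rich cells. These were IFI44L, IFIT2, IFIT5, OAS1, OAS2, OASL, MX2, IRF7, HERC6, SAMD9L and BST2. Of the 29 members at 20 CPM or more over all cells, the rich cells included, 24 were higher, against 0.947% of the other genes. Their median log2 ratio was 1.43, against 0.02 over those genes. IFIT2, MX2 and HERC6, all among the 24, met that floor only through the rich cells.

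The widest differences belonged to RSAD2 (266 against 23.0 CPM, 11.6-fold, 10.0 to 13.4), OASL (78.4 against 7.98 CPM, 9.82-fold, 7.57 to 12.7), IFIT2 (135 against 17.9 CPM, 7.56-fold, 6.28 to 9.10), IFI44L (38.8 against 5.46 CPM, 7.11-fold, 5.02 to 10.0) and CCL5 (215 against 31.8 CPM, 6.74-fold, 5.84 to 7.78). IFIT3 (5.83-fold), MX2 (4.77-fold), ISG15 (4.42-fold), SAMD9L (4.08-fold) and IFIT1 (3.84-fold) came next. Of these 10, OASL, IFIT2, IFI44L, MX2 and SAMD9L were under 20 CPM in the other cells and passed the floor through the rich cells. At the other end DTX3L, a ubiquitin ligase, stood at 1.12 times (0.829 to 1.49), LGALS3BP at 1.17 times (1.06 to 1.30), STAT2 at 1.32 times (1.08 to 1.61), UBE2L6 at 1.36 times (1.12 to 1.64) and IRF9 at 1.36 times (0.960 to 1.88). EIF2AK2 (1.503-fold, 1.32 to 1.71) and SP100 (1.502-fold, 1.36 to 1.66) lay at the threshold. Both STAT2 and IRF9, the members that act in ISGF3, stayed under the threshold. HERC5, CMPK2, USP18 and TRIM22 had too few UMIs to be compared.

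**Figure D3:**
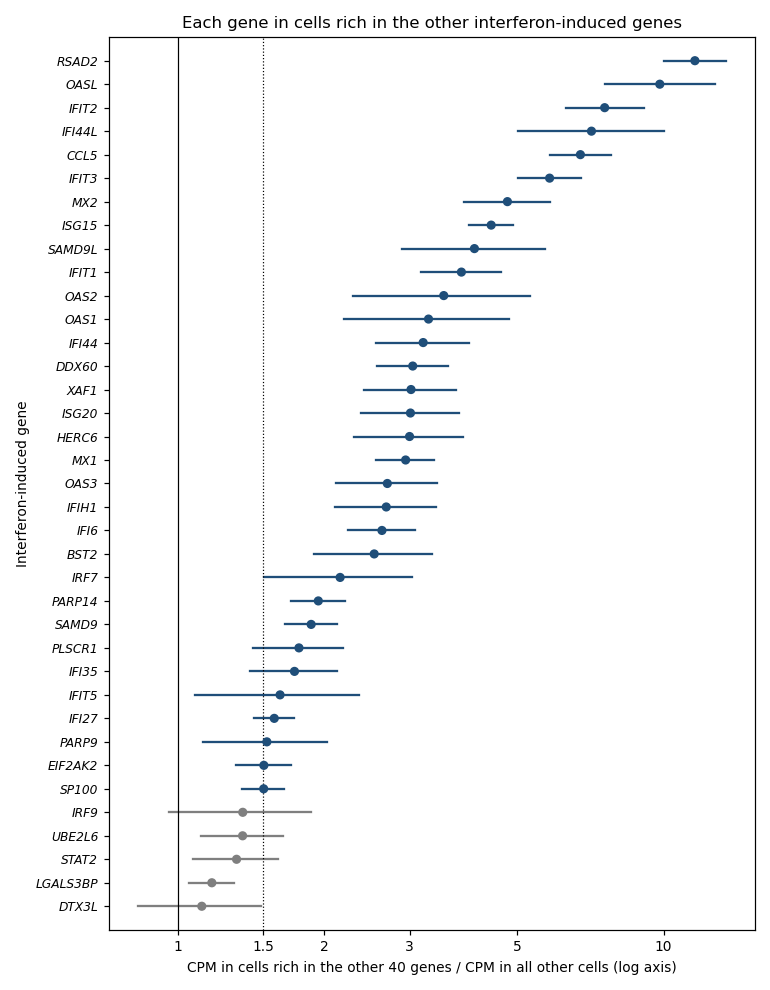
Ratio of CPM in cells rich in the other 40 genes to that in all other cells, on a log axis, with 95% intervals, for the 37 members compared (blue: at least 1.5-fold with an interval that leaves out 1; dotted line: 1.5). RSAD2 stands highest at 11.6-fold and the 5 grey genes at the bottom are IRF9, UBE2L6, STAT2, LGALS3BP and DTX3L.

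Among compared members with a promoter, the 19 with the ISRE letters had a median ratio in rich cells of 2.69 (1.17 to 11.6). The 12 without the letters had a median of 1.62 (1.12 to 4.08). The 2 ranges overlapped, and single genes did not all follow the letters. LGALS3BP held the ISRE letters and stood at 1.17 times, whereas XAF1 (3.02-fold) held none in the window searched. MX1 (2.94-fold) held none either, but a further RefSeq start of MX1 downstream was not searched.

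Rich cells had a median of 1586 UMIs, 4348 peak counts and 13.4% mitochondrial UMIs, against 1515, 4004 and 13.9% in the others, and the part of these gaps in the result was not tested. Immune markers summed to 13.9 CPM in rich cells and 12.7 CPM in the others, and endothelial markers to 19.5 and 20.5 CPM. They were spread over all clusters, with 20.0% of cells rich in cluster 2 (17.9 to 22.3), 10.4% in cluster 5 (7.11 to 14.5), 8.11% in cluster 1 (7.43 to 8.84), 6.12% in cluster 3 (4.43 to 8.21) and 2.86% in cluster 4 (1.70 to 4.48). At the cut itself 369 cells had 5 thinned UMIs and 803 cells had 4. Within cluster 1 alone, 20 members were higher, with 32 compared and 1.82% of other genes higher. In cells with at most 10% mitochondrial UMIs, of which 98 were rich, 13 of 18 compared members were higher, against 3.54% of other genes.

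Among all genes off the list, the highest ratios in rich cells belonged to ZC3HAV1 (227 against 57.8 CPM, 3.92-fold, 3.46 to 4.44), PLAAT4 (3.57-fold), PMAIP1, the pro-apoptotic NOXA (3.49-fold), DDX58 (3.00-fold, 2.56 to 3.51), SH3RF3 (2.66-fold), C5orf56 (2.51-fold), ITGA1 (2.34-fold), TENT5A (2.25-fold), DDX60L (2.18-fold) and the integrin chain ITGA2 (2.14-fold). Of the fixed list of other interferon-induced genes, 9 of 22 compared were higher, from ZC3HAV1 down to PML (1.51-fold). IRF1, a transcription factor induced by interferons, was higher at 2.09-fold (1.56 to 2.75). Of receptors and kinases 0 of 7 were higher, of nucleic acid sensors and adaptors 1 of 4 (DDX58), of antigen presentation genes 1 of 13 (GBP3, 1.53-fold), of NF-kB targets 1 of 10 (CXCL8, 1.70-fold), and of mesothelial markers 0 of 11.

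Detection in pairs gave a second view of the same cells. For 34 members found in at least 100 thinned cells, the number of cells with both of a pair was set over the number that their separate shares of cells give. Of 561 pairs, 135 (24.1%) were seen together at least 1.5 times as often with an interval that left out 1, and 2 (IFIT5 with EIF2AK2 and IFI44 with BST2) less often. For pairs of a member with a gene off the list, 1.14% of 287572 were higher and 0.936% lower. The median ratio was 1.28 for member pairs and 0.995 for the others.

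OASL and RSAD2 were seen together in 31 cells, where 3.64 were expected (8.53 times, 5.79 to 12.1). IFIT2 and OASL followed (22 cells against 3.05, 7.22 times), then IFIT2 and SAMD9L (15 against 2.63, 5.71 times), IFIT2 and RSAD2 (40 against 7.21, 5.55 times), OASL and CCL5 (24 against 4.37, 5.49 times) and RSAD2 and CCL5 (56 against 10.3, 5.41 times). Each of these pairs lies on different chromosomes. Of the 526 pairs on different chromosomes 125 were higher, and of the 35 on the same chromosome 10 were. RSAD2 was called with 19 of its 33 partners, IFIT2 with 18, IFIT3 with 17, and OASL, MX2 and IFIT1 with 16 each. SP100, PARP9, IFI27 and LGALS3BP were called with none, although IFI27 and LGALS3BP were found in more than 2000 thinned cells each. IRF7 was called with a single partner, IRF9 (10 cells against 2.32, 4.31 times, 2.06 to 7.92). The pairs seen less often were IFIT5 with EIF2AK2 (8 cells against 15.9) and IFI44 with BST2 (0 against 4.04). In the 1592 cells with at most 10% mitochondrial UMIs only 9 members were found often enough, and 0 of their 36 pairs were called.

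**Figure D4:**
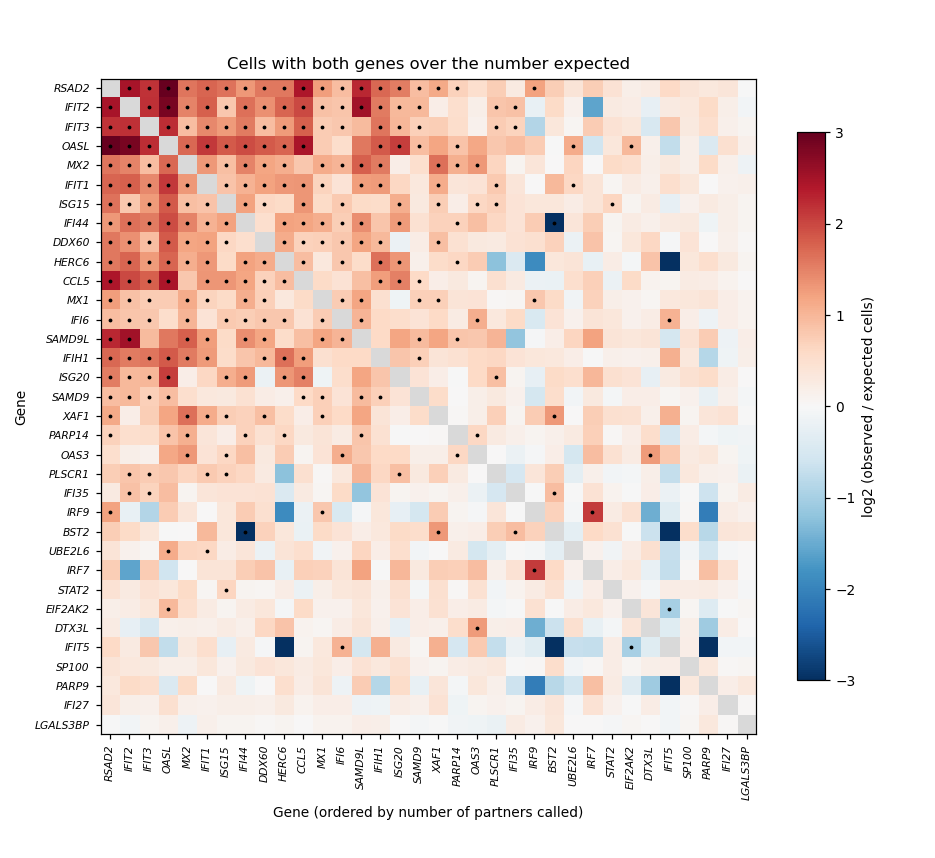
log2 of the observed over the expected number of cells with both genes, for 34 members ordered by the number of partners called (dot: called; pairs never seen together are drawn at -3). The dots crowd among RSAD2, IFIT2, IFIT3, OASL and their neighbours in the upper left, and the rows of SP100, PARP9, IFI27 and LGALS3BP have none.

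The spread of the list among cells had a long tail. Thinned cells held a mean of 2.22 UMIs of the 41 genes with a variance of 4.68 and a maximum of 40. In 82 cells (with 1.05% of all UMIs) at least 10 of the 1000 UMIs came from the list, a cut chosen after its values were seen; 23 cells had 10 and 27 cells had 9. These cells held 6.44% of the UMIs of the list. HERC5 had 9 of its 23 UMIs in them (39.1%). They held 36.1% of the UMIs of RSAD2 (271 of 751), 31.8% of OASL, 28.0% of IFIT2, 24.4% of CCL5 and 19.6% of IFIT3, but 2.24% of IFI27, 1.82% of LGALS3BP and 1.14% of DTX3L. RSAD2 was found in 60 of the 82 cells (73.2%) and ISG15 in 65 (79.3%). The UMIs of each gene counted toward the cut that picked these cells, so these shares are partly set by it.

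With each member taken out of its own split, the ratio between such cells and the rest was 48.4 for RSAD2 (41.2 to 56.9), 41.8 for OASL (31.3 to 55.4), 35.6 for IFIT2 (28.8 to 43.8), 27.3 for CCL5 (22.9 to 32.5) and 13.3 for ISG15 (11.3 to 15.6). It was 1.92 for STAT2 (1.15 to 3.01), past the threshold here, 1.503 for LGALS3BP (1.13 to 1.96) and 1.44 for IRF9 (0.465 to 3.40). DTX3L was lowest at 1.09 (0.398 to 2.39). All 41 genes had a UMI in the 82 cells. For genes off the list a floor of 20 UMIs was set on these cells themselves. Of those that met it, ZC3HAV1 stood highest (841 against 65.9 CPM, 12.8-fold, 10.7 to 15.2). TENT5A (8.04-fold) followed with just 20 UMIs there and 14.3 CPM in the rest, then DDX58 (6.43-fold). Under that floor GBP4 (11 UMIs, 52.0-fold, 22.5 to 114) and GBP1 (8 UMIs, 18.4-fold, 7.47 to 39.8) had higher ratios. HLA-E (2.52-fold) and HLA-B (2.41-fold) were past 1.5-fold, while B2M (1.29 times) and PSMB8 (0.897 times) were not.

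Cluster 2 held 48 of the 82 cells (3.56% of its cells, 2.64 to 4.70) and cluster 1 held 29 (0.492%, 0.330 to 0.706). The 82 cells had a median of 1872 UMIs, 4941 peak counts and 13.2% mitochondrial UMIs, against 1522, 4029 and 13.9% in the rest. They had no UMI of any interferon gene, but all cells together had only 11 of IFNE, 2 of IFNB1 and 1 of IFNL1. The 82 cells hold 1.05% of all UMIs, so this 0 cannot show absence. Their 12 immune markers had 5 UMIs (28.8 CPM, against 12.6 CPM in the rest), of which CD68 had 4 (23.0 against 7.19 CPM, 3.20 times, 0.859 to 8.42) and CD14 had 1, and the other 10 markers, PTPRC and CD3E among them, were at 0, and mesothelial markers summed to 9863 CPM against 11731 CPM; the part of these values in the result was not tested. Without these cells, 23 members were counted as higher in rich cells (34 compared), 13 members as higher in cluster 2, and 45 pairs as seen together, against 32, 20 and 135 with them.

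**Figure D5:**
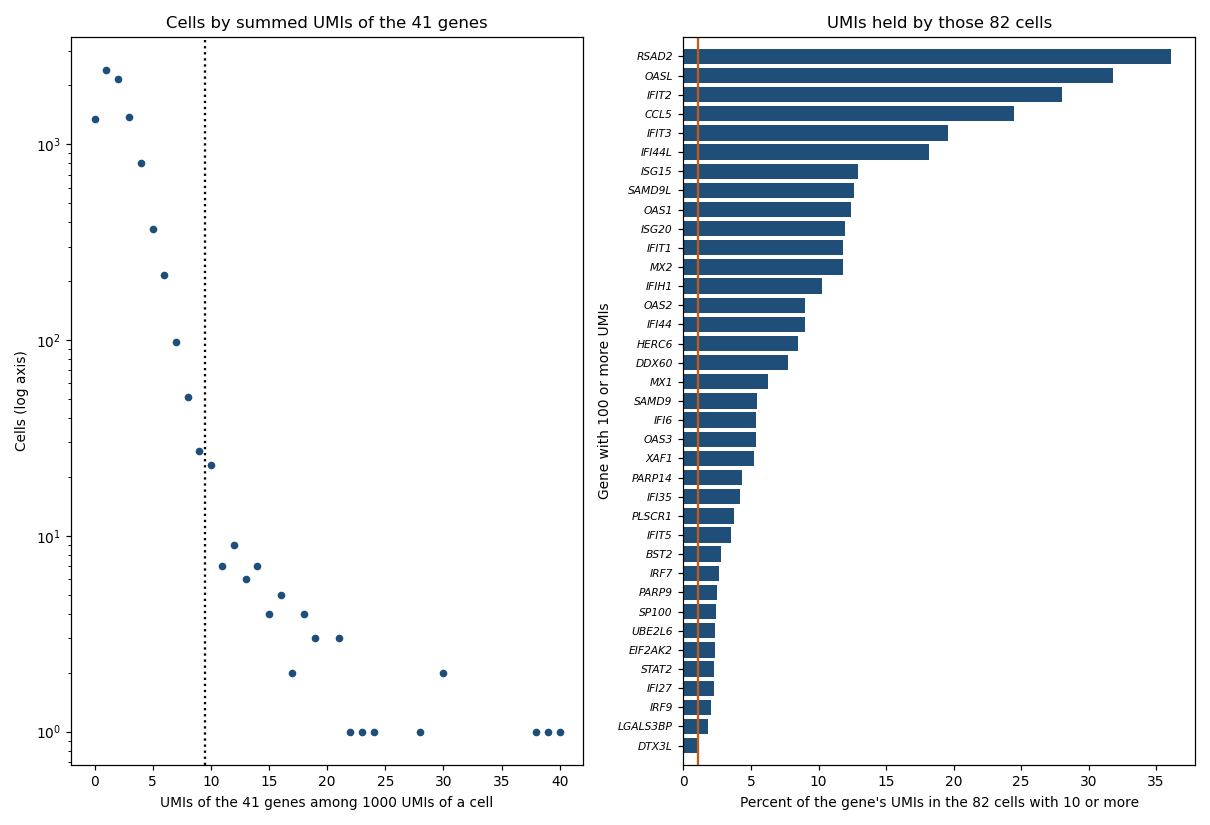
Left, number of cells (log axis) by UMIs of the 41 genes among 1000 UMIs of the cell, with a dotted line before 10. Right, percent of the UMIs of each gene with at least 100 UMIs that lay in the 82 cells to the right of that line. The UMIs of the gene itself counted in picking these cells. The orange line marks the 1.05% share of these cells in all UMIs, and RSAD2 reaches 36.1%.

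The matrix holds 223 peaks within 20 kb of their start-site intervals, 2 to 14 for each gene, of which 13 lie near more than 1 member. In cells rich in the list, 10 of 199 compared peaks were higher and 4 lower, where 1.85% and 1.54% of 155847 other peaks were. The median log2 ratio was 0.04 over the 199 compared peaks and 0.26 over the 35 peaks that cover a RefSeq promoter. Peaks within 20 kb can belong to neighbouring genes, and these were not separated.

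Of the 10 higher peaks, 5 overlapped the start-site interval of a member. The peak at chr2:6877274-6878152 over the start of RSAD2 stood at 8.18 against 4.62 counts, scaled to 1e6 peak counts (1.77-fold, 1.04 to 2.88), and the peak at chr2:6865258-6866146, over the start of the neighbouring CMPK2 and an upstream RefSeq start of RSAD2, at 1.57-fold (1.13 to 2.14). The other 3 were at OAS2 (chr12:112978083-112978973, 2.08-fold, 1.28 to 3.27), OASL (chr12:121038604-121039530, 1.89-fold, 1.25 to 2.78) and SP100 (chr2:230415771-230416652, 1.71-fold, 1.24 to 2.30). RSAD2 and OASL also had the widest RNA differences in these cells, and SP100 stood at 1.502-fold in RNA. Every 2 peak counts were taken as 1 event in these intervals, since 87.9% of peak entries were even.

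Across chromatin clusters the same peaks were set against all other cells. In cluster 2, 14 of 199 were higher and 7 lower (6.99% and 9.74% of other peaks), in cluster 4, 9 and 10 (5.05% and 3.1%), in cluster 3, 6 and 17 (6.75% and 6.39%), in cluster 1, 7 and 4 (4.55% and 3.72%), and in cluster 5, 6 and 2 (3.97% and 1.72%). The share of higher peaks in cluster 2 lay near that of other peaks. At starts in cluster 2, the peak of CCL5 (2.39-fold, 1.32 to 4.20), the peak of MX2 (1.69-fold, 1.26 to 2.24) and a peak within the start interval of MX1 (1.58-fold, 1.20 to 2.06) were higher, and all 3 genes were higher there in RNA. Of the 35 peaks that cover a RefSeq promoter, which leave out those of CCL5 and MX2, only 1 was higher in cluster 2. In RNA 20 members were higher there, so most of them had no such peak. In cluster 4 the peaks at the starts of ISG15 (0.445 times, 0.227 to 0.790), IFI44L (0.153 times), IFIT5 (0.610 times) and IFIH1 (0.641 times) and a peak in the start interval of IFIT2 (0.229 times) were lower. RNA in cluster 4 was lower for ISG15, IFIH1 and IFIT2, and IFI44L and IFIT5 were not compared. In cluster 3 the start of MX2 (0.301 times, 0.132 to 0.591) and those of IFI27 (0.343 times) and IRF9 (0.639 times) were lower, while those of IFIH1 (1.503-fold), PARP14 (1.51-fold), EIF2AK2 (1.78-fold) and SAMD9L (4.23-fold) were higher. RNA in cluster 3 was lower for MX2 and IFI27 and did not reach the threshold for IRF9 (0.722 times), IFIH1 (0.829 times), EIF2AK2 (0.920 times) and PARP14 (1.04 times), and SAMD9L was not compared. In cluster 5 the RSAD2 start stood at 0.175 times (0.00440 to 0.995), with RSAD2 lower in RNA as well. That peak had only 241 counts over all cells, and its interval all but reached 1. The CCL5 start was higher there (3.25-fold, 1.33 to 6.90), whereas its RNA was lower (0.229 times).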

How the data were processed

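One pool of cells was measured in expression, accessibility and hashtag libraries. Per the file headers, the matrix was written by Cell Ranger ARC 2.0.0 and holds whole-number counts per gene (UMIs) or peak and barcode, without normalisation. Per the submitters' processing notes, Cell Ranger 2.0.0, ArchR 1.0.3, MACS2 and GRCh38.p10 were also used, in roles not given in the sources used here. A deposited list names 4 hashtags, without counts.

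The members and gene lists were chosen with earlier results of these data known. Every member may be named. Of the other lists, genes past 1.5-fold were named, ligands and receptors by level, and of all other genes the 10 with the highest ratio in rich cells. IFNAR1, the leading genes of clusters 2 and 4 and the genes off the list in the 82 cells were named after their values were seen. Values of 1 gene of the lists are not reported here. Peaks named lie at member starts.

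Peaks found in at least 20 cells, without those within 20 kb of a member, were TF-IDF weighted (scaled per cell, with common peaks weighted down) and reduced by singular value decomposition to 30 components, without those correlated over 0.75 with depth and scaled to unit length per cell. A graph of 15 neighbours with Jaccard weights of at least 1/15 was cut by the Leiden algorithm (leidenalg 0.10.2, resolution 0.5, seed 0). Scaling and edges were chosen after several partitions had been looked at by their leading genes, and partitions move with these settings. No doublet caller was run, and doublets remain. Ratios of summed counts carry exact conditional binomial 95% intervals, levels exact Poisson and shares exact Clopper-Pearson ones, computed with SciPy 1.17.1 and not adjusted for the number compared. Functions were tested on simulated data. Alternatives used edgeR 4.0.16 and DESeq2 1.42.0 for scaling factors only. Promoters came from RefSeq (GRCh38.p14). Of several starts of a gene, the one nearest to the start interval in the matrix was used. Where several lay within that interval, as for MX1, the first listed was used and the others were not searched.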

Additional observations from a re-analysis of the deposited data

How the results depend on the processing

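No paired analysis was possible because all cells form 1 pooled sample. Depth limits the low members: HERC5, USP18, CMPK2 and TRIM22 were below the floor of every comparison. Intervals cover counting error, not variation between cultures, and 1 pool gives none. The summed level was 2378 CPM in the 1592 cells with at most 10% mitochondrial UMIs, 2147 CPM in cells with at least 2000 UMIs and peak counts, 2227 CPM without the 8% of cells with the most UMIs and 2554 CPM with mitochondrial UMIs left out of the total.

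In those 1592 cells far fewer UMIs were at hand, and 18 members were compared in each cluster. Of them, 10 were higher in cluster 2 (3.76% of all genes), 2 lower in cluster 3 (3.31%) and 12 lower in cluster 4 (8.15%). In cluster 5, 0 were higher and 0 lower (3.57% and 1.20% of all genes). In rich cells 13 of 18 members were higher (3.54% of other genes), and 0 of 36 pairs were called. Of 73 peaks compared in rich cells, 4 were higher (1.75% of other peaks) and 0 lower. The ratios that changed sides there were IFIT1 in cluster 3 (1.53) and IFI6 (0.648), IFIT1 (0.789), BST2 (0.695) and PLSCR1 (0.773) in cluster 5, and IFIT5 (0.818) and PARP9 (0.849) in rich cells.

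Members lower in cluster 1 numbered 0 with clusters from all peaks, at resolution 1.0 and at 0.3, 4 with at least 10 UMIs and no CPM minimum, and 1 each without unit scaling, with edges between direct neighbours and without the 82 cells. At resolution 0.3 the cells of cluster 2 fell into the largest cluster, where 13 members were higher, OAS3 (1.63) and MX2 (2.03) among them. Without the 82 cells 13 of 30 compared members were higher in cluster 2 (4.89% of all genes). In cluster 5, 3 members were higher after thinning, 1 was lower with direct neighbours, and without unit scaling it was not recovered (20 higher, 0 lower, RSAD2 at 2.27 and CCL5 at 1.39). The clusters matched to cluster 4 shared little with it without unit scaling (Jaccard index 0.279, 1284 cells, 17 members lower). At resolution 0.3 the match was also partial (0.477, 1187 cells, 16 lower). Counts for cluster 4 in these settings therefore describe partly other cells. The settings on unit scaling, direct neighbours and the 82 cells were chosen after seeing the data. Within cluster 1, 20 members were higher in rich cells. Without the 82 cells 45 of 496 pairs were called, and 2 of 198 compared peaks were lower in rich cells. With a cut at 5% of cells 1 peak was lower, at 20% of cells 6 were higher and 2 lower, and with peaks within 2 kb 0 were lower. Peaks within 2 kb, of which 75 were compared, gave 4, 4, 9, 6 and 4 calls in clusters 1 to 5. Of other peaks, 8.26%, 16.7%, 13.1%, 8.15% and 5.68% were called there. In cluster 2 the called share of member peaks was 5.33% within 2 kb, against 10.6% of the 199 within 20 kb. Resolution 1.0 gave 5 calls in cluster 1 (4.45% of other peaks). Under the other alternatives, TMM and median-of-ratios scaling among them, counts stayed within 1.5 times. The cause was not tested.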

Other observations

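The 2217 barcodes left out for more than 20% mitochondrial UMIs carried the 41 genes at 1735 CPM, below the 2196 CPM of the cells. LGALS3BP stood at 297 CPM there and RSAD2 at 18.7 CPM, against 262 and 45.3 CPM in cells. The 86 cells of cluster 6 carried the list at 2036 CPM (1825 to 2265), and 5 of them (5.81%, 1.91 to 13.0) were rich in it.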
